A study of Mus musculus with 12 samples.

Results

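Respiratory complex I, the NADH dehydrogenase of the inner mitochondrial membrane, is built from subunits coded in the nucleus and subunits coded in mitochondrial DNA. The genes described here are its nuclear genes whose mouse symbols start with Nduf, taken as every protein-coding gene of that name outside the mitochondrial chromosome: 46 of the 46517 Ensembl identifiers counted. They fall into 38 subunit genes (the Nduf a, b, c, s and v series) and 8 assembly factor genes (the Ndufaf series). Ndufb1 was not analysed here, since the only identifier of that name in the annotation is a non-coding one.

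The RNA came from translating ribosome affinity purification (TRAP) of the ventromedial nucleus of the hypothalamus (VMN), in which ribosomes carrying a GFP-L10 fusion protein are pulled down from SF1 cells together with the RNA they hold. There were 6 pools of 6 mice each, and each pool was sequenced as an input (RNA of the whole dissected VMN) and as an output (RNA of the pull-down), which made 4 groups of 3 libraries, input and output of the CTRL and of the DN pools. All mice were fed regular chow, were fasted overnight before collection and received an AAV coding for GFP-L10. The DN mice also received, into the VMN, an AAV carrying dominant-negative AMPK. AMPK is the protein kinase that responds to low cellular energy. The free-text treatment note names the dominant-negative virus for the CTRL samples too, and the labelled yes or no entry for the mutant was followed. Which virus, if any, took its place in CTRL is not given in the sources used here, so an effect of the mutant and of a further virus cannot be told apart. Strain, age, sex and what limits the fusion protein to SF1 cells are likewise not given.

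Complex I takes electrons from NADH in its matrix arm, passes them along iron-sulfur clusters to quinone, and pumps protons through its membrane arm. The core subunits carry these reactions and are conserved from bacteria, whereas accessory subunits surround them and assembly factors join the modules without staying in the finished enzyme. Neurons draw most of their ATP from oxidative phosphorylation, and AMPK is activated when ATP falls.

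Promoter sequences were taken for 40 of the 46 genes from RefSeq (GRCm38.p6), as 250 bases before to 50 bases after each annotated start, which gave 42 promoters. Ndufa2, Ndufa4l2, Ndufaf6, Ndufb9 and Ndufs1 were among those with no entry. The motif of NRF1, a transcription factor known for nuclear genes of the respiratory chain, was searched on both strands as GCGCA and GCGC with any 1 base between them. It stood in 10 of the 42 (23.8%), against 4.60% of all 32851 promoters of the same length. The ETS motif CCGGAAG stood in 6 (14.3%, against 8.86%) and the YY1 motif AAGATGGC in 8 (19.0%, against 2.75%). These are letter matches in one window and say nothing of binding, and a gene can hold more than one motif. Below are the 120 bases before the gene for Ndufaf4, which has an NRF1 match, and for Ndufaf1, which has an ETS match. Those for Ndufa4 and Ndufv1, which are described further below, are shown too. Capitals mark the motif letters, all bases run 5′ to 3′ on the gene's own strand, and none of the 3 motifs lies in the stretches shown for Ndufa4 and Ndufv1.
Ndufaf4 (chr4:24897963-24898082, plus strand): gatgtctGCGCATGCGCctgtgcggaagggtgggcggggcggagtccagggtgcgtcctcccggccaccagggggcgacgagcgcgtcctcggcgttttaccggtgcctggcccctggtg
Ndufaf1 (chr2:119662835-119662954, minus strand): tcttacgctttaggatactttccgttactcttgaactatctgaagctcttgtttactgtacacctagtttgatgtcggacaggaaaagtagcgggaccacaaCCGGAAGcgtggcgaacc
Ndufa4 (chr6:11907498-11907617, minus strand): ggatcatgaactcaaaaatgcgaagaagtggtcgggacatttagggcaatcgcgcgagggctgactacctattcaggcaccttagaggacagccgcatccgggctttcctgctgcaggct
Ndufv1 (chr19:4012807-4012926, minus strand): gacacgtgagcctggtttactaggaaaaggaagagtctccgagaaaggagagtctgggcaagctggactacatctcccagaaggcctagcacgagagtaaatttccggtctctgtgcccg

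The 46 genes lay on 17 chromosomes, 2 of them on X. For 21 of the 46 (45.7%) the start of a protein-coding gene on the opposite strand lay within 1000 bases of their own start, against 2346 of all 21547 protein-coding genes counted (10.9%). The starts of Ndufs1 and Eef1b2, a translation elongation factor gene, were 8 bases apart, those of Ndufa7 and the ribosomal protein gene Rps28 were 10 bases apart, and those of Ndufs6 and the mitochondrial ribosomal gene Mrpl36 were 29 bases apart. The genes were short, with a median of 1643.5 bases of merged exons against 3530 for all protein-coding genes counted. Exons of 16 of the 46 overlapped another counted gene, 15 of them one on the opposite strand. Whether counting used the strand is not given in the sources used here, so reads of such neighbours cannot be told apart and those genes are uncertain; among the genes named below they include Ndufs1 (with Eef1b2), Ndufs3, Ndufs6, Ndufa2, Ndufa9, Ndufa13, Ndufb5, Ndufb6, Ndufb8 (with a gene on the same strand), Ndufaf3 and Ndufa4l2.

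Libraries held 34.6 to 55.5 M (mega) reads counted to genes. Genes of the mitochondrial chromosome took 74.9 to 79.7% of the input reads and 17.9 to 26.1% of the output reads, which left 8.54 to 11.3 M reads on nuclear genes for each input library and 26.2 to 32.1 M for each output library. The labelled cells were checked by markers: 8 of 10 genes of VMN neurons were higher in outputs than in inputs in CTRL and 8 of 10 in DN by edgeR. Nr5a1, which codes for SF1, was higher by 3.44 ± 0.55 (SE) on the log2 scale in CTRL (adjusted p = 0.00751, edgeR). In CTRL, 9 of 10 astrocyte genes and 7 of 10 oligodendrocyte genes were lower in outputs. Levels are given as CPM, read counts scaled to a library size that TMM, a scaling between libraries, has adjusted. In CTRL input 1, with 43.5 M reads, 755 reads of Ndufs1 gave 26.3 CPM. In CTRL output 1, with 36.6 M reads, 5478 reads gave 78.2 CPM. Levels compared between inputs and outputs thus rest on this scaling. Summed over 10 astrocyte markers, levels were 3089 to 3781 CPM in CTRL inputs and 1646 to 1896 CPM in CTRL outputs. They were 1130 to 1280 CPM in DN outputs, so RNA of cells outside the targeted type remained in the outputs. In bulk RNA of this kind, fewer cells of a type and less RNA per cell cannot be told apart. Prkaa1 and Prkaa2, which code for the catalytic subunits of AMPK, averaged 34.6 ± 3.79 and 85.6 ± 12.5 CPM in CTRL outputs and 26.9 ± 5.01 and 91.4 ± 19.4 CPM in DN outputs (SD, n = 3). The sequence carried by the virus is not given, so these levels do not check the labels. The replicates are pools of animals, and p-values measure the spread between these pools.

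The nuclear complex I genes took 13096 to 15965 reads per input library and 36126 to 48408 per output library. As CPM of the nuclear genes alone, without TMM scaling, this was 1198 to 1587 in CTRL inputs and 1336 to 1603 in DN inputs. It was 1307 to 1560 in CTRL outputs and 1401 to 1546 in DN outputs, and the ranges of all 4 groups overlapped. Summed over the 38 subunits, normalized levels were 460 ± 87.2 CPM in CTRL inputs, 506 ± 46.5 in DN inputs, 546 ± 53.8 in CTRL outputs and 603 ± 8.55 in DN outputs (SD, n = 3). The 8 assembly factors summed to 54.3 ± 7.79, 69.9 ± 19.4, 62.9 ± 8.07 and 74.5 ± 17.2 CPM in the same order.

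Compared per kilobase of merged exons and averaged over the 12 libraries, the subunits had a median level of 6.44 CPM per kb and the assembly factors one of 2.82. Ndufa4 was highest at 46.3 CPM per kb; its protein, long counted as a complex I subunit, is now assigned to cytochrome c oxidase. Among the accepted subunits Ndufc2, Ndufb9 and Ndufs4 followed at 21.2, 20.3 and 18.1 CPM per kb. Ndufb7 at 0.847, the carrier Ndufab1 at 1.0 and Ndufb8 at 1.31 were the lowest subunits apart from Ndufa4l2, and Ndufaf8 at 0.795 was the lowest assembly factor. Genes whose protein products enter one enzyme thus spanned 25.0-fold in RNA per kb, with the Ndufa4 family left out, and the 7 core subunits spanned 5.23-fold. The low end rests on annotated lengths: Ndufb7 averaged 3.83 CPM over 4522 bases of merged exons and Ndufab1 6.89 CPM over 6883 bases. Before division by length Ndufb4, at 2.76 CPM, was below both. The choice of length matters here: per kb of the longest transcript the core span was 4.17-fold. The span of all subunits but Ndufa4l2, with Ndufa4 included, went the other way, from 54.6-fold to 60.0-fold. Ndufb9, Ndufs4 and Ndufc2 then stood at 29.8, 28.9 and 23.4 CPM per kb, and Ndufb7, whose longest transcript spans 4435 bases, at 0.863. Ndufs1 moved from rank 26 to rank 6 of the 46 because its merged exons span 8086 bases and its longest transcript 2661.

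**Figure D1:**
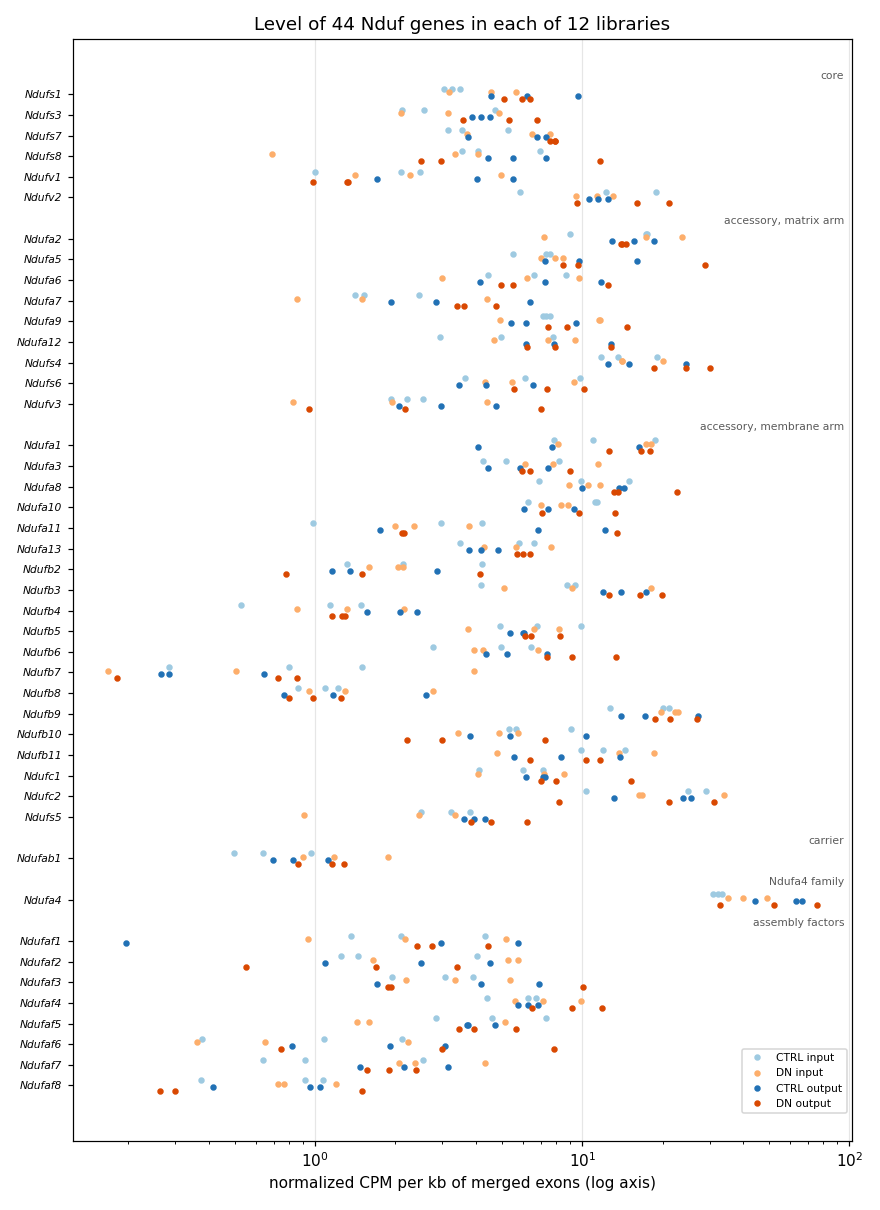
Normalized CPM per kb of merged exons (log axis) of 44 Nduf genes, by role, with 1 point per library and colours for the 4 groups of 3 libraries; Ndufa4l2, at 0 in 10 of the 12 libraries, is left out. Ndufa4 has the highest mean, although its lowest libraries meet the highest of Ndufc2, while Ndufb7, Ndufab1 and Ndufaf8 lie around 1 CPM per kb and the 4 colours intermix for most genes.

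Libraries of one group differed far more than counting error gives. The coefficient of variation over 3 libraries had a median over the 45 genes of 34.7% in CTRL inputs, 38.4% in DN inputs, 33.0% in CTRL outputs and 30.5% in DN outputs, whereas counting error alone corresponds to 7.52, 6.69, 4.14 and 4.18%. Other genes with means anywhere between the lowest and the highest of the 45 had medians of 41.5, 52.0, 43.8 and 51.1%. That range held 10739 to 10933 genes and was not matched level by level, so it does not show complex I genes to be steadier. Single genes were as steady as Ndufa2 in DN outputs (2.32%) and Ndufa9 in CTRL inputs (3.03%), or as variable as Ndufb7 in DN inputs, at 2.28, 17.9 and 0.760 CPM in pools 1 to 3 (136%).

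The first question was what the pull-down holds relative to the tissue. None of the 45 tested genes passed an adjusted p of 0.05 in CTRL by edgeR's quasi-likelihood test, where 3.2% of the 13456 genes tested did (1.78% higher in outputs). By edgeR 2 had an unadjusted p below 0.05 (16.3% of all genes), limma-voom called 0 (3.14% of all genes) and DESeq2 called 2 (8.99% of the genes it tested). In DN none passed by edgeR either (3.38% of 13041 genes, 1.84% higher in outputs), none had an unadjusted p below 0.05 (15.7% of all genes), and DESeq2 (8.91% of its genes) and limma-voom (3.04%) called 0. The median log2 fold change, output over input, was 0.24 in CTRL and 0.27 in DN, against 0.02 and 0.00 over all genes, and 30 and 31 of the 45 were above 0 (66.7 and 68.9%), against 51% and 50.2% of all genes. Subunits had medians of 0.24 and 0.27 and assembly factors of 0.22 and 0.23. Libraries did not overlap between input and output for 4 genes in CTRL, all higher in outputs (23.2% of all genes did not overlap in either direction), and for 5 in DN (22.5%), of which 4 were higher in outputs. The share of complex I genes that did not overlap was thus below that of all genes in both groups. The 95% interval lay within 1 log2 unit of 0 for 5 of the 45 in CTRL (17.8% of all genes) and 2 in DN (12% of all genes).

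**Figure D2:**
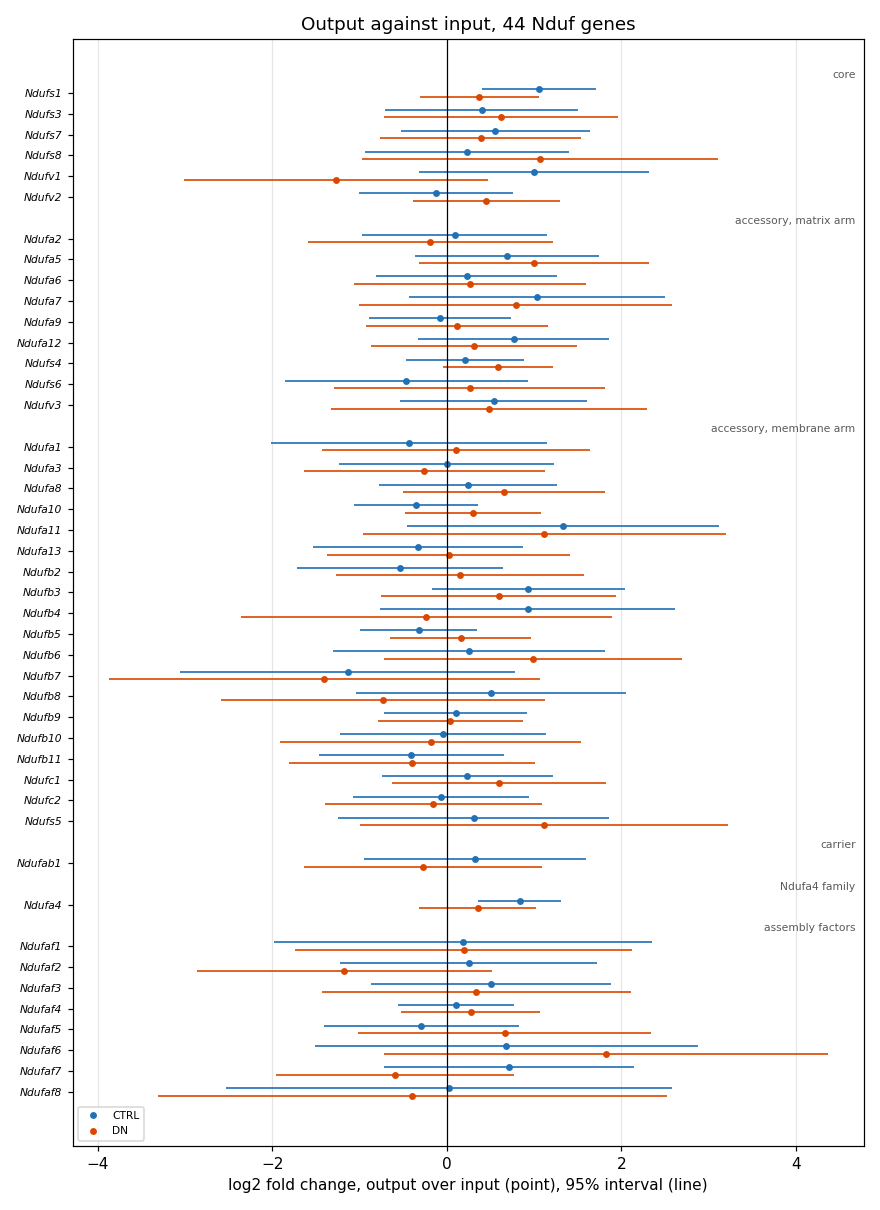
Fitted log2 fold change of output over input (points) with its 95% interval (lines) for 44 Nduf genes by role, in CTRL (blue) and DN (orange), 3 pools each. Intervals exclude 0 for Ndufs1 and Ndufa4 in CTRL and for no gene in DN, and no gene passed the adjusted threshold.

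Ndufs1 and Ndufa4 stood nearest to the threshold in CTRL. Ndufs1 codes for the largest core subunit, which holds several of the iron-sulfur clusters of the matrix arm. Its levels were 26.3, 24.6 and 28.2 CPM in CTRL inputs and 78.2, 37.0 and 50.4 CPM in CTRL outputs, and 25.6, 45.7 and 36.8 CPM in DN inputs and 48.2, 51.8 and 41.2 CPM in DN outputs. All CTRL outputs lay above all CTRL inputs, whereas the DN fractions overlapped. Within pools, output exceeded input in all 3 CTRL pools and in all 3 DN pools. The log2 fold change, output over input, was 1.05 ± 0.30 in CTRL (adjusted p = 0.0851, edgeR; 0.0120 to 0.457 over the alternatives run) and 0.37 ± 0.31 in DN (adjusted p = 0.642, edgeR). Ndufa4 was at 46.1, 44.6 and 42.7 CPM in CTRL inputs, 91.9, 61.2 and 86.8 in CTRL outputs, 48.5, 68.1 and 55.0 in DN inputs and 104, 72.0 and 45.3 in DN outputs. Here too only the CTRL fractions did not overlap, and DN output 3 was below every DN input. The log2 fold change was 0.84 ± 0.22 in CTRL (adjusted p = 0.0633, edgeR; 0.00854 to 0.339 over the alternatives run) and 0.35 ± 0.31 in DN (adjusted p = 0.654, edgeR). DESeq2 called both genes in CTRL (adjusted p = 0.0120 for Ndufs1 and 0.00854 for Ndufa4), and so did edgeR with no filter on low counts (0.0141 and 0.0212). The difference of the effect between DN and CTRL did not pass for either: its interaction term was -0.68 ± 0.42 for Ndufs1 and -0.48 ± 0.39 for Ndufa4 (adjusted p = 0.858 and 0.925, edgeR).

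**Figure D3:**
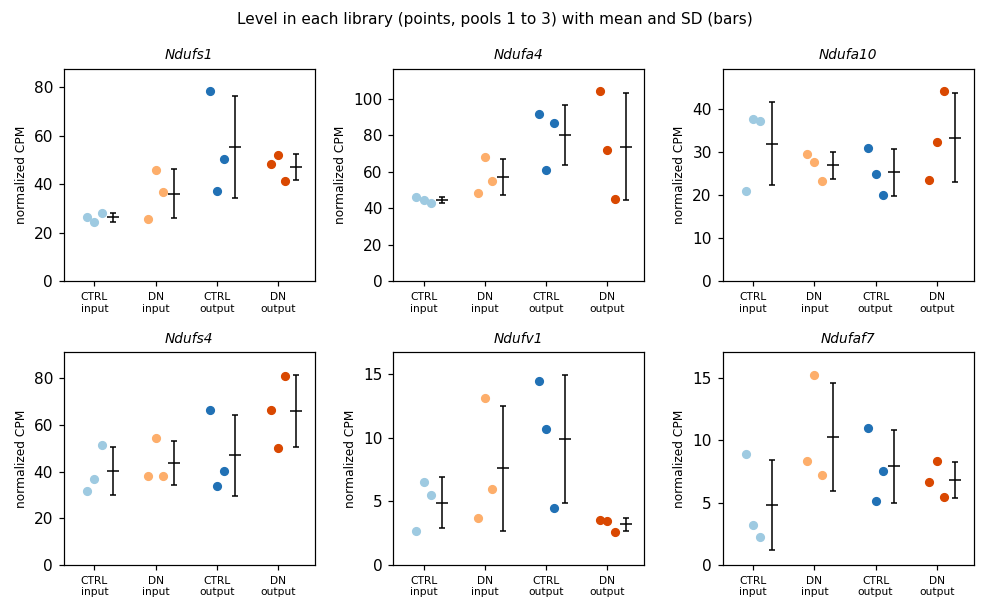
Normalized CPM of 6 Nduf genes in each library (points, pools 1 to 3 from left to right within a group), with the mean and SD of each group of 3 (bars); each vertical axis starts at 0. Ndufs1 and Ndufa4 are higher in every CTRL output than in any CTRL input, Ndufv1 has its lowest mean in the DN outputs, and the fractions overlap in both CTRL and DN for Ndufa10, Ndufs4 and Ndufaf7.

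The other core subunits overlapped between fractions, with 1 exception in DN. Ndufv1, which binds NADH and its first electron acceptor FMN, was at 2.64, 6.52 and 5.53 CPM in CTRL inputs, 14.5, 10.7 and 4.50 in CTRL outputs, 3.71, 13.1 and 6.0 in DN inputs and 3.51, 3.46 and 2.60 in DN outputs. Its DN outputs all lay below its DN inputs, and its fitted change had opposite signs, 1.0 ± 0.60 in CTRL and -1.27 ± 0.80 in DN (adjusted p = 0.454 and 0.504, edgeR). Ndufs7, which carries an iron-sulfur cluster next to the quinone site, was higher in output than in input in all 6 pools, from 6.12, 5.41 and 9.10 CPM to 11.6, 6.44 and 12.6 in CTRL and from 11.1, 13.0 and 6.36 to 13.0, 13.6 and 13.6 in DN, by 0.56 ± 0.49 and 0.39 ± 0.53 on the log2 scale, neither of which passed (adjusted p = 0.638 and 0.793, edgeR).

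Ndufs3, a structural core subunit of the matrix arm, was at 4.63, 5.59 and 10.3 CPM in CTRL inputs, 9.08, 8.45 and 9.80 in CTRL outputs, 10.6, 4.57 and 6.84 in DN inputs and 7.77, 14.8 and 11.6 in DN outputs. Ndufs8, which carries iron-sulfur clusters, was at 4.59, 8.95 and 5.26, then 7.11, 5.71 and 9.44, then 5.25, 0.891 and 4.32, then 3.23, 15.1 and 3.82 CPM in the same order of groups. Ndufv2, another iron-sulfur subunit, was at 26.4, 12.6 and 40.7, then 22.7, 24.5 and 26.8, then 24.4, 28.1 and 20.4, then 20.6, 45.4 and 34.6 CPM. The spread within groups was as wide as the distance between them for all 3, and in Ndufs8 pool DN 2 alone went from the lowest input to the highest output.

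Among the accessory subunits Ndufs4, whose loss causes Leigh syndrome and is used to model it in mice, had 31.7, 37.0 and 51.6 CPM in CTRL inputs, 66.5, 33.9 and 40.5 in CTRL outputs, 38.0, 54.4 and 38.2 in DN inputs and 66.2, 50.3 and 81.2 in DN outputs. DN output 2 lay below DN input 2, and the change in DN was 0.59 ± 0.29 (adjusted p = 0.36, edgeR). Ndufa5, of the quinone-binding module, had 5.67, 7.80 and 7.58 CPM in CTRL inputs, 7.51, 10.1 and 16.6 in CTRL outputs, 8.74, 7.25 and 8.16 in DN inputs and 9.93, 8.76 and 29.8 in DN outputs. Output exceeded input in all 6 of its pools, the DN fractions did not overlap, although DN input 1 and DN output 2 were almost level, and the largest value was that of DN output 3. Its changes of 0.69 ± 0.48 in CTRL and 1.0 ± 0.61 in DN did not pass (adjusted p = 0.530 and 0.482, edgeR). Ndufa9, next to the quinone site, overlapped throughout, with 15.0, 15.4 and 15.9 CPM in CTRL inputs, 19.9, 12.9 and 11.4 in CTRL outputs, 10.4, 24.3 and 24.5 in DN inputs and 30.9, 18.4 and 15.6 in DN outputs.

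In the membrane arm Ndufb3 had 6.68, 3.19 and 7.18 CPM in CTRL inputs and 9.13, 10.6 and 13.2 in CTRL outputs, with no overlap, and 6.96, 13.8 and 3.88 in DN inputs and 9.64, 15.2 and 12.5 in DN outputs. Its output exceeded its input in all 6 pools, by 0.94 ± 0.50 in CTRL and 0.59 ± 0.62 in DN (adjusted p = 0.398 and 0.719, edgeR). The share of all genes with output above input in all 6 pools was not computed, so this pattern does not set Ndufs1, Ndufs7, Ndufa5 or Ndufb3 apart. Ndufb6 had 3.27, 4.22 and 1.83 CPM in CTRL inputs, 2.88, 3.46 and 4.88 in CTRL outputs, 4.50, 2.79 and 2.60 in DN inputs and 8.80, 4.89 and 6.06 in DN outputs, and did not overlap between the DN fractions. Ndufc2 overlapped between all 4 groups, at 22.0, 7.80 and 18.8 CPM in CTRL inputs, 9.88, 17.9 and 19.2 in CTRL outputs, 12.3, 25.5 and 12.6 in DN inputs and 15.9, 6.20 and 23.5 in DN outputs.

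Ndufa10, whose fold resembles that of nucleoside kinases, was at 20.8, 37.7 and 37.3 CPM in CTRL inputs, 31.0, 24.8 and 20.1 in CTRL outputs, 29.6, 27.8 and 23.3 in DN inputs and 23.5, 32.3 and 44.1 in DN outputs. Ndufa13, also called GRIM-19, was at 4.35, 8.27 and 7.27, then 5.21, 4.72 and 6.04, then 5.39, 7.08 and 9.60, then 7.50, 7.97 and 7.16 CPM in the same order. Ndufb7, on the intermembrane-space side of the enzyme, was at 3.62, 1.29 and 6.78, then 2.91, 1.20 and 1.28, then 2.28, 17.9 and 0.760, then 3.86, 3.29 and 0.824 CPM. All 3 overlapped between fractions in both CTRL and DN.

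Ndufab1, the mitochondrial acyl carrier protein that sits in both arms and serves lipoic acid synthesis too, was at 4.38, 6.66 and 3.44 CPM in CTRL inputs, 7.71, 4.79 and 5.68 in CTRL outputs, 13.0, 8.14 and 6.20 in DN inputs and 7.97, 8.86 and 5.92 in DN outputs, again with overlap. Ndufa4l2, the paralog of Ndufa4 known as a target of hypoxia-inducible factor, had 3 reads in CTRL output 1, 1 read in CTRL output 2 and 0 in the other 10 libraries. It did not pass the filter on low counts. A count of 0 allows a level of up to 0.0541 to 0.0866 CPM in these libraries (3 reads, before scaling between libraries, counting error only), so the RNA was at or under this limit in inputs and in DN outputs.

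No assembly factor passed in either group. Ndufaf4, which helps to build the quinone module together with Ndufaf3, was the highest of them per kb, with 26.2, 24.4 and 17.2 CPM in CTRL inputs, 26.6, 22.4 and 24.4 in CTRL outputs, 21.9, 38.5 and 27.8 in DN inputs and 25.2, 46.3 and 35.8 in DN outputs. Its change between fractions was small for its error, 0.11 ± 0.30 in CTRL and 0.27 ± 0.37 in DN. Ndufaf3 was at 3.51, 7.05 and 5.58 CPM in CTRL inputs, 7.58, 12.5 and 3.10 in CTRL outputs, 3.96, 6.07 and 9.72 in DN inputs and 3.42, 18.3 and 3.49 in DN outputs. Ndufaf7, an arginine methyltransferase that acts early in assembly, was at 8.91, 3.22 and 2.23 CPM in CTRL inputs, 11, 5.15 and 7.57 in CTRL outputs, 8.32, 15.2 and 7.20 in DN inputs and 6.65, 8.37 and 5.47 in DN outputs. In each CTRL pool its output was higher than its input and in each DN pool lower, but the groups overlapped and the interaction term, -1.31 ± 0.87, did not pass (adjusted p = 0.889, edgeR).

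Ndufaf2, a chaperone of late assembly, was at 4.31, 3.72 and 12 CPM in CTRL inputs, 3.24, 13.5 and 7.41 in CTRL outputs, 4.89, 15.7 and 17.2 in DN inputs and 10.2, 1.64 and 5.04 in DN outputs. Ndufaf1, which acts in building the membrane arm, was at 6.47, 3.15 and 2.05, then 8.62, 4.45 and 0.296, then 3.25, 1.42 and 7.80, then 6.66, 4.13 and 3.6 CPM in the same order of groups. Ndufaf6, needed for early assembly, was at 2.61, 0.465 and 1.34, then 1.01, 2.37 and 3.79, then 2.75, 0.445 and 0.80, then 9.71, 3.68 and 0.921 CPM. These low genes spread widely, and none separated the fractions. The fitted change of Ndufaf6 in DN, 1.82 ± 1.17, was the highest of the 45 genes in that comparison and did not pass (adjusted p = 0.512, edgeR); in CTRL it was 0.68 ± 1.0 (adjusted p = 0.805, edgeR). Ndufaf5, which hydroxylates an arginine of the Ndufs7 protein, was at 8.25, 13.1 and 5.09 CPM in CTRL inputs, 8.41, 6.63 and 6.67 in CTRL outputs, 2.86, 9.19 and 2.56 in DN inputs and 7.03, 10.1 and 6.17 in DN outputs. Its partner Ndufaf8 was at 0.765, 0.895 and 0.312, then 0.799, 0.872 and 0.345, then 0.999, 0.607 and 0.640, then 0.251, 1.25 and 0.220 CPM, the lowest per kb of the tested genes, and overlapped throughout.

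Within each pool, as the log2 ratio of output to input CPM after adding 1 CPM, the median of the 45 genes was 0.36, 0.33 and -0.12 in CTRL pools 1, 2 and 3 and 0.06, 0.15 and 0.14 in DN pools 1, 2 and 3. CTRL pool 3 was the only pool with a median below 0, with 20 of 45 genes above 0 against 24 to 32 in the other 5 pools. The 37 tested subunits had medians of 0.47, 0.25 and -0.20 in CTRL and 0.03, 0.13 and 0.20 in DN, and the 8 assembly factors 0.03, 0.47 and 0.18 in CTRL and 0.52, 0.37 and -0.38 in DN. The median over all 15011 genes of the joint fit lay between -0.01 and 0.00 in every pool. CTRL and DN pools thus overlapped for both sets.

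**Figure D4:**
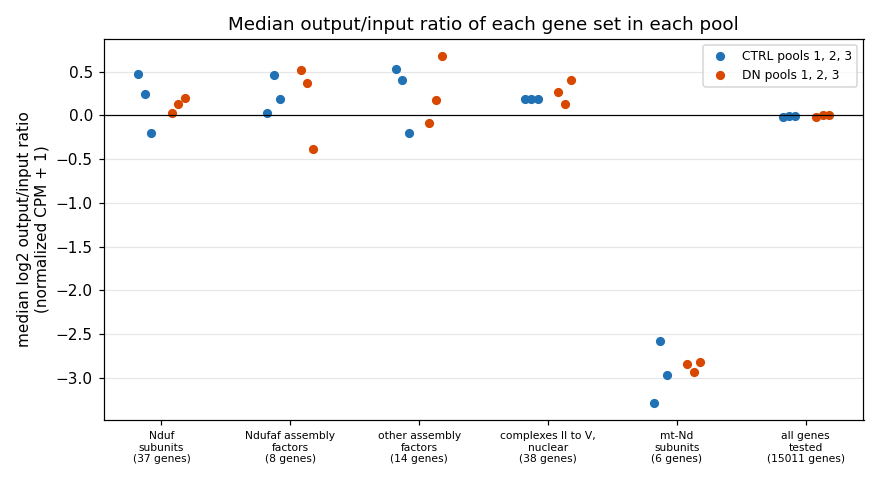
Median log2 ratio of output to input (normalized CPM plus 1) for 6 gene sets, with 1 point per pool, CTRL in blue and DN in orange, pools 1 to 3 from left to right. Nuclear sets scatter around or a little above 0, whereas the mitochondrially encoded complex I subunits lie between -3.29 and -2.58 in all 6 pools.

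The subunits of the same enzyme coded in mitochondrial DNA behaved differently. Of the 7 mt-Nd genes, mt-Nd4l had 0 reads in every library, 6 were tested, and 5 were lower in outputs in both CTRL (1.42% of all genes were called lower) and DN (1.54%) by edgeR. mt-Nd1 was at 13334, 15151 and 16438 CPM in CTRL inputs and 1281, 2236 and 1942 CPM in CTRL outputs, a log2 fold change of -3.05 ± 0.19 (adjusted p = 9.9e-06, edgeR), and of -3.13 ± 0.06 in DN (adjusted p = 3.9e-12, edgeR). The medians over the 6 were -3.04 in CTRL and -3.05 in DN, all 5 were called under every alternative that kept these genes, and the medians then ranged from -3.24 to -2.93 in CTRL and from -3.09 to -3.0 in DN. The sixth, mt-Nd3, was at 0.80 to 1.82 CPM in inputs and 0.0571 to 0.119 CPM in outputs and did not pass (adjusted p = 0.166 in CTRL and 0.185 in DN, edgeR).

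Other nuclear genes of the pathway were not called either. Among 14 further assembly factors of complex I, 0 passed by edgeR in CTRL or in DN (0 and 1 with an unadjusted p below 0.05), with median log2 fold changes of output over input of 0.22 and 0.13. Among 38 tested nuclear genes of complexes II to V, 0 passed in CTRL or DN (4 and 4 with an unadjusted p below 0.05), with medians of 0.18 and 0.27. The medians of the nuclear complex I genes lay beside these, at 0.24 and 0.27.

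The comparison named by the series title was DN against CTRL. In outputs none of the 45 genes passed by edgeR (0% of 13333 genes did), 1 had an unadjusted p below 0.05 (5.41% of all genes), and DESeq2 (0.462% of its genes) and limma-voom (0.0075%) called 0 of the 45. The median log2 fold change, DN over CTRL, was 0.18 against 0.01 over all genes, 0.25 for the subunits and 0.10 for the assembly factors, and 30 of 45 were above 0 (66.7%, against 50.8% of all genes). Without DN pool 2 the median of the 45 was 0.09. Libraries did not overlap for 6 of the 45, against 11% of all genes. Of these, Ndufb6, Ndufa13, Ndufs7 and Ndufb5 were higher in every DN output (5.17% of all genes), and Ndufv1 and Ndufb4 were lower (5.87%). By role, 3 of 7 core subunits, 7 of 9 accessory subunits of the matrix arm, 14 of 19 of the membrane arm and 5 of 8 assembly factors had a fold change above 0.

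Ndufv1 was the gene with an unadjusted p below 0.05. Its DN outputs, at 3.51, 3.46 and 2.60 CPM, all lay below its CTRL outputs, at 14.5, 10.7 and 4.50 CPM, but CTRL output 3 was within 1 CPM of DN output 1. The log2 fold change was -1.63 ± 0.67 (adjusted p = 0.911, edgeR; adjusted p of 0.36 to 1.0 over the alternatives run, with changes of -1.98 to -1.25). In inputs the same gene stood at 0.64 ± 0.68, DN over CTRL (adjusted p = 0.997, edgeR), with DN input 2 the highest at 13.1 CPM. The difference between these effects, -2.27 ± 0.94, did not pass either (adjusted p = 0.740, edgeR).

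The next smallest p-values in outputs belonged to Ndufaf4, at 0.55 ± 0.33, Ndufs4, at 0.49 ± 0.30, and Ndufa9, at 0.55 ± 0.44, each with an adjusted p of 0.949 by edgeR. Ndufb6 and Ndufa13, whose groups did not overlap, were at 0.81 ± 0.69 and 0.50 ± 0.60. The values by library given above show how narrow some of these gaps were, as between the highest CTRL output of Ndufb6, at 4.88 CPM, and its lowest DN output, at 4.89 CPM.

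**Figure D5:**
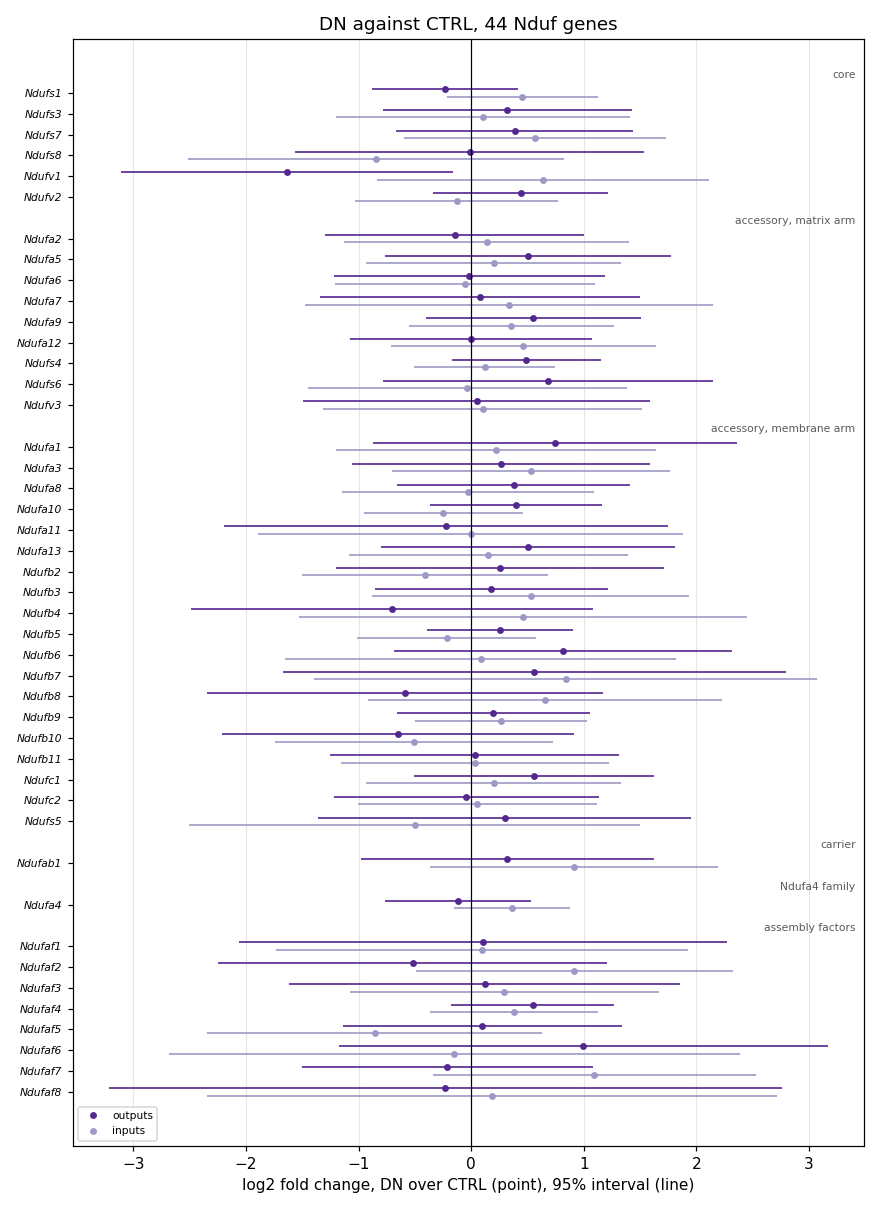
Fitted log2 fold change of DN over CTRL (points) with its 95% interval (lines) for 44 Nduf genes by role, in outputs (dark) and inputs (light), 3 pools per group. The interval of Ndufv1 in outputs excludes 0, all other intervals include it, and no gene passed the adjusted threshold.

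In inputs none of the 45 passed by edgeR (0.00756% of 13221 genes, a single gene, did), 0 had an unadjusted p below 0.05 (4.46% of all genes), and DESeq2 (0.0153% of its genes) and limma-voom called 0. The median was 0.18 against 0.03 over all genes, 0.15 for the subunits and 0.24 for the assembly factors, with 32 of 45 above 0 (71.1%, against 52.2% of all genes). Without CTRL pool 3 the median of the 45 was 0.33. Ndufa4 alone of the 45 did not overlap between groups and was higher in DN, against 10.5% of all genes in either direction (5.17% higher, 5.37% lower), at 0.36 ± 0.24 (adjusted p = 0.997, edgeR). Ndufaf7 at 1.09 ± 0.66 and Ndufab1 at 0.91 ± 0.59 had smaller p-values than Ndufa4, and Ndufs1 at 0.45 ± 0.31 the next one after it, each with an adjusted p of 0.997 by edgeR. The DN and CTRL libraries of all 3 overlapped.

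How large a difference these data leave room for can be read from the intervals. In outputs the 95% interval of DN over CTRL lay within 1 log2 unit of 0, less than a doubling or halving, for 4 of the 45 genes, Ndufs1, Ndufa4 and Ndufb5 among them, against 19.8% of all genes, and in inputs for 4 (21.3% of all genes). The intervals reached a median of 1.29 log2 units to either side of the estimate in outputs and 1.27 in inputs. For Ndufs1 in outputs the interval ran from -0.88 to 0.42 and for Ndufa4 from -0.77 to 0.53. For Ndufaf8 it ran from -3.22 to 2.76, so that for the least abundant genes even large differences were not detectable.

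The other genes of the enzyme and its pathway stood as follows in the same comparison. The mt-Nd genes were above 0 for all 5 tested in outputs and all 6 tested in inputs, with medians of 0.37 and 0.40. In outputs 6 were tested in a fit of all 12 libraries and with no filter on low counts, and 1 of them was then below 0. In inputs 1 of the 6 turned below 0 without DN pool 2. Without CTRL pool 1 the median in outputs was 0.16. In inputs mt-Nd2 was at 4836, 5748 and 6658 CPM in CTRL and 8684, 8951 and 7953 CPM in DN, a log2 fold change of 0.57 ± 0.10 (adjusted p = 0.818, edgeR). No mt-Nd gene passed by edgeR in either fraction, with 2 in outputs and 5 in inputs at an unadjusted p below 0.05. In inputs limma-voom called 5 of them among 8 genes called in all (0.0605% of those tested). There edgeR with no filter on low counts called 4 (0.181% of genes), and edgeR without CTRL pool 3 called 4. In outputs DESeq2 called 1 (0.462% of genes). In outputs 0 of 14 further assembly factors and 0 of 38 nuclear genes of complexes II to V passed (0 and 1 with an unadjusted p below 0.05), with medians of -0.01 and 0.23. In inputs 0 and 0 passed (2 and 1), with medians of -0.11 and 0.24. Summed levels of 10 neuronal markers found in all neurons stood in the same direction as the medians of the complex I genes. They went from 7304 to 7729 CPM in CTRL outputs to 8290 to 9179 CPM in DN outputs. In inputs they went from 4786 to 5310 CPM in CTRL to 5619 to 5973 CPM in DN. Of these 10 genes, 7 were above 0 and 3 below in each fraction. The 10 VMN markers summed to 1535 to 1752 CPM in CTRL outputs and 1808 to 2432 CPM in DN outputs, with 8 above 0 and 2 below. Their inputs overlapped, at 550 to 643 CPM in CTRL and 571 to 755 CPM in DN, with 6 above 0 and 4 below. The summed level of the 10 astrocyte markers in outputs went the other way, from 1646 to 1896 CPM down to 1130 to 1280 CPM. Gene by gene these markers were mixed: of 9 tested, 4 were above 0 and 5 below, with a median of -0.03. The part of the cell types in the medians of the complex I genes was not tested.

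Whether the output to input difference itself depended on the mutant was tested by the interaction term over all 12 libraries. None of the 45 genes passed by edgeR (0% of 15011 genes did), 1 had an unadjusted p below 0.05, which was Ndufv1 (6.22% of all genes), and DESeq2 (0.619% of its genes) and limma-voom (0%) called 0. The median was -0.05 against -0.02 over all genes, with 22 of 45 above 0 (49.2% of all genes), and the interval lay within 1 log2 unit of 0 for none of the 45 (9.46% of all genes). After Ndufv1 the smallest p-values belonged to Ndufs1, Ndufaf7 and Ndufa10, the last at 0.64 ± 0.47 (adjusted p = 0.902, edgeR). The sign of the median changed with the processing: it was 0.13 with each pool as a block, which pairs its input and output. It was 0.13 without CTRL pool 1, 0.12 without CTRL pool 2, 0.08 without DN pool 3 and -0.23 without CTRL pool 3.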

How the data were processed

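The authors deposited 1 file of raw counts per gene and library, whole numbers with no normalization; the submitters' processing notes list GRCm38 as build and, as tools, HTSeq 0.6.1, STAR 2.4.2a and cutadapt 1.3. All RNA was amplified with a NuGEN Ovation kit, per the labels' protocols, which can widen the spread of low genes; no molecular identifiers are named. Which annotation release, strand setting and parameters applied is not given in the sources used here. Reads without a gene, 16.1 to 26.1% of all, were left out. No library was a copy of another.

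Groups came from the sample labels. Gene symbols, lengths and positions were read from mouse GENCODE release 21 (GRCm38), which held 46005 of 46517 identifiers (98.9%). The 46 genes, the gene lists and the rule for named genes were chosen with earlier results of these data known. Named were the core subunits, Ndufab1, the Ndufa4 family, all Ndufaf genes, the 4 smallest p-values per comparison, the largest changes among genes whose groups did not overlap and whose higher mean was at least 5 CPM, and the highest and lowest subunits per kb; Ndufb4, Ndufb5, Ndufb8, Ndufb9 and Ndufa2, and the 3 gene pairs with neighbouring starts, were named after their values were seen. 1 gene that the rule named is not reported here by name; it stays in all counts and medians.

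Tests were two-sided quasi-likelihood tests of edgeR 4.0.16 (R 4.3.3) with TMM scaling, filterByExpr (minimum count 10, total 15) and Benjamini-Hochberg adjustment over all genes tested, each on the 6 libraries concerned and for the interaction on all 12. Errors of fold changes are standard errors. Levels are TMM-normalized CPM. Alternatives were DESeq2 1.42.0, limma-voom (limma 3.58.1) with sample weights, other scalings, filters and samples, and blocks. The fits were checked on simulated data. Input and output of a pool come from the same animals, so pool numbers pair them by design; across 15011 genes, the correlation of their deviations was 0.0350 to 0.156 in CTRL and -0.00229 to 0.0153 in DN. DN and CTRL pools share only a number, and their deviations correlated by -0.0134 to 0.00562. The correlations within DN pools were close to these, so the pairing in DN rests on the sample numbers alone.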

Additional observations from a re-analysis of the deposited data

Results flagged for a closer look

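The output to input ratio of Ndufaf7 pointed in opposite directions in the 2 groups. The mean log2 ratio over 3 pools was 0.741 ± 0.592 (SD) in CTRL, where all 3 pools were above 0, and -0.473 ± 0.277 in DN, where all 3 were below 0. The difference was tested by the interaction term, which was -1.31 ± 0.87 and did not pass (adjusted p = 0.889, edgeR; adjusted p of 0.801 to 1.0 over the alternatives run). With 45 genes examined for opposite directions in all pools, this was the only one. The share of all genes with that pattern was not computed, so the count does not set Ndufaf7 apart.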

How the results depend on the processing

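No complex I gene changed direction among those followed through the alternatives. These had the smallest p-values, or groups that did not overlap, in the comparison concerned, so their stable directions carry little weight. Not all of them had a value in each alternative. Of 311 alternative values for these genes, 307 kept their side of the threshold and 4 moved past it, which were those of Ndufs1 and Ndufa4 in CTRL outputs against inputs, so that the count of called complex I genes there rose from 0 to 2 with DESeq2 and to 2 with no filter on low counts. The median log2 change of the complex I genes in DN outputs against inputs, 0.27, was 0.21 with limma-voom, 0.16 with a minimum mean of 5 CPM, and 0.21 to 0.29 when a pool was left out. The same median in CTRL, 0.24, was 0.13 with a minimum mean of 5 CPM and 0.16 to 0.28 when a pool was left out. For DN against CTRL, the median of 0.18 in outputs was 0.09 to 0.23 when a library was left out. In inputs, where it was 0.18 too, it was 0.13 to 0.33 when a library was left out, 0.10 with a minimum mean of 5 CPM and 0.12 with upper quartile scaling.

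Counts of called genes over the whole table depended more on the processing. Against 431 genes for CTRL outputs and inputs, 1172 were called with DESeq2, 903 with no filter and 45 to 214 without a pool. Against 441 for DN, 1124 were called with DESeq2, 976 with no filter, 673 in a fit of all 12 libraries and 115 to 148 without a pool. For DN against CTRL, 0 to 58 were called in outputs (58 with DESeq2, 1 with limma-voom), 0 to 39 in inputs (39 with no filter, 8 with limma-voom, 8 without CTRL pool 3), and 0 to 91 for the interaction (91 with DESeq2, 54 with no filter). With the pool as a replicate block, 527 genes were called in CTRL and 396 in DN for outputs against inputs and 0 in the other 3 comparisons, 0 complex I genes were called in any of the 5, and the median of the interaction was 0.13; for DN against CTRL this block joins different animals that share only a number, and their deviations correlated by -0.0134 to 0.00562. In DN against CTRL the widest intervals of the 45 genes, in outputs and in inputs, belonged to Ndufaf8, Ndufaf6 and Ndufb7, all low genes.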
